A study of Mus musculus with 7 samples.

Results

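Susd3 encodes sushi domain containing 3, a small membrane protein, and it is described here in the mouse adrenal gland from late gestation to adulthood. It is 1 row of a table of 35976 gene symbols, and it was chosen by its values in the 12-week male and the 12-week female library, which lay far apart. Values at 12 weeks are therefore a description without a test, and the tests reported below were run on libraries that the choice did not use.

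The study compared adrenal glands by age and sex, all from the inbred mouse strain C57BL/6J. RNA came from pools of E18.5 embryos (late gestation, 40 glands, sex not determined), P1 males (postnatal day 1, 16 glands), P1 females (22 glands), males and females of 2 weeks (6 glands each), and males and females of 12 weeks (4 glands each). The labels name no transgene or other agent for any group. Each group is 1 library made from 1 pool, so the spread between animals is not known and every interval on a single library covers counting error only.

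A sushi module, also called a complement control protein module, is a compact fold held by disulfide bonds, and strings of them build the complement regulators and many cell adhesion molecules. SUSD3 carries such a module outside the cell and a membrane-spanning segment, and in human breast tumours its transcript is known to be high where estrogen receptor alpha is present. The adrenal gland joins a steroid-producing cortex to a catecholamine-producing medulla. In mice the inner cortex holds a transient layer, the X-zone, which regresses in males at puberty and persists longer in females.

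In the mm10 assembly (GRCm38) Susd3 lies on the minus strand of chromosome 13, from 49230690 to 49248706 in GENCODE M21, with 6 annotated transcripts. A pair of them has 5 exons each, from 49230829 to 49248706 and from 49230690 to 49248294, and these differ in their first base. The deposited values are per gene, so the use of these starts was not measured. In RefSeq the 3′ end of Susd3 overlaps the long noncoding RNA gene Gm52024 by 121 bases, and Gm52024 has no row in the table. Use of strand in the counting is not stated, so reads in those 121 bases could not be assigned with certainty.

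The window around a RefSeq start at 49248294 is shown because Susd3 is compared below with genes of like profile, and binding to it was not measured. The RefSeq gene reaches 49248706, so the window lies within its annotated span and does not cover the bases before that outer start. The window spans chr13:49248245-49248544 on the minus strand (RefSeq, GRCm38.p6), 250 bases before the start at 49248294 and 50 after it. The capitals mark a match to CAAGGTCA, the letters bound by NR5A1, the nuclear receptor that drives steroid-producing cell identity.

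Susd3 promoter: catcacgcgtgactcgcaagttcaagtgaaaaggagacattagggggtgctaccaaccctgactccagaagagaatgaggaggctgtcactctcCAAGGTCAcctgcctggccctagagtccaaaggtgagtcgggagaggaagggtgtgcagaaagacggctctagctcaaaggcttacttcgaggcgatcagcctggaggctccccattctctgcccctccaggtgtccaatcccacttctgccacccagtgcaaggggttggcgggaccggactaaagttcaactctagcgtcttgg

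CAAGGTCA occupies bases 95 to 102 of the window, which is 156 to 149 bases before the start at 49248294, on the strand of the gene. On either strand, 512 of 32851 RefSeq promoter windows of this length hold it, or 1.56%. The window held no match to AGAACA and TGTTCT with 3 bases between them, a palindromic steroid hormone response element found in 3 windows (0.00913%). Nor did it hold GGTCA and TGACC with 3 bases between them, an estrogen response element found in 23 windows (0.070%). It also held no match to the steroid hormone half-site AGAACA, found in 19.0% of windows, or to TATAAA, the TATA box, found in 13.6%. All motifs were searched on both strands after the sequence had been seen, AGAACA lies within the palindrome, and GGTCA is shared by CAAGGTCA and the estrogen element.

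Susd3 was a low-abundance transcript in 6 libraries and abundant in 1. It had 70.6 normalized counts at E18.5 (84 reads, 95% Poisson interval 56.3 to 87.4). It had 133 in P1 males (162 reads, 113 to 155) and 83.9 in P1 females (76 reads, 66.1 to 105). At 2 weeks it had 66.7 in males (75 reads, 52.5 to 83.6) and 37.9 in females (43 reads, 27.5 to 51.1). The 12-week male library stood far above these, and the 12-week female library was the lowest of the 7. They had 984 normalized counts (704 reads, 913 to 1060) and 27.2 (24 reads, 17.4 to 40.4), so the highest level was 36.2 times the lowest. Normalized counts are read counts divided by a size factor per library, and 3 reads correspond to 3.39 normalized counts in 12-week females, so the transcript was still detected there.

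**Figure D1:**
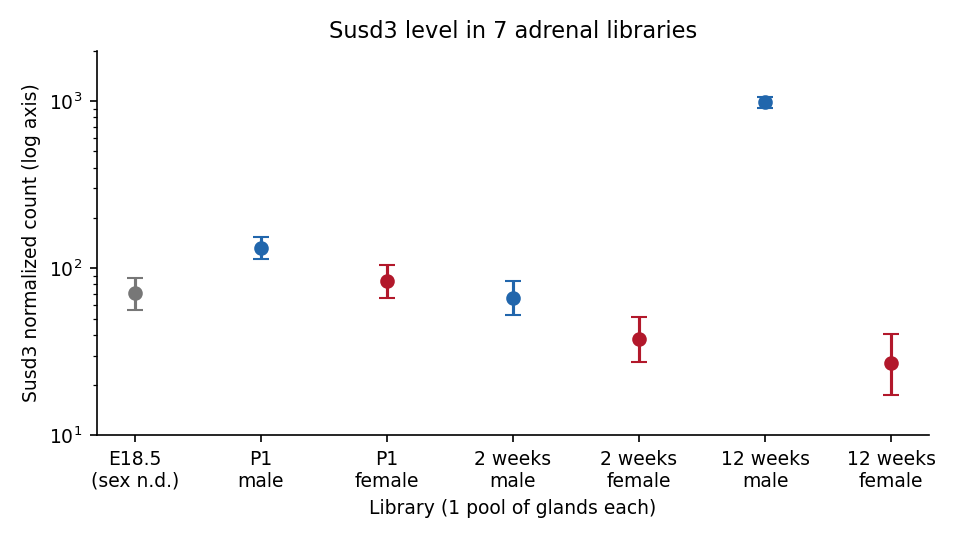
Susd3 in normalized counts (log axis) for the 7 libraries, with exact 95% Poisson intervals that cover counting error only; grey is the unsexed E18.5 pool, blue male and red female. The 12-week male library, at 984, stands above the other 6, which lie between 27.2 and 133.

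Ordered from high to low, the libraries were 12-week male, P1 male, P1 female, E18.5, 2-week male, 2-week female and 12-week female. The 12-week male level was 7.43 times that of P1 males, the next in order (95% interval of the ratio 6.25 to 8.86, exact binomial on reads). P1 males lay above P1 females and 2-week males above 2-week females beyond counting error, as given below with the sexes. P1 females and E18.5 did not differ beyond counting error (ratio 1.19, 0.860 to 1.64), nor did E18.5 and 2-week males (1.06, 0.766 to 1.46). The 2-week and 12-week female libraries also did not differ beyond it (1.40, 0.829 to 2.41). The 12-week female level was below the other libraries by ratios from 2.46 (2-week males, 1.53 to 4.07) upward.

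Sex labels were checked on Xist, the RNA that silences an X chromosome, and on 4 Y-linked genes. Xist had from 8103 to 22167 normalized counts in the female libraries and from 3.56 to 22.1 in the male ones. The Y-linked genes summed to 2.26 at 12 weeks and 4.41 at 2 weeks in females, but to 1273 in the library labelled P1 female, against 6135 in P1 males. That library therefore goes against its label in part, so "P1 female" below means the library so labelled. Reads assigned to genes ranged from 15184210 in 12-week males to 23551289 in P1 males. All 9 adrenal cortex markers and all 8 chromaffin markers had reads in every library, the cortical ones summing to between 258108 (P1 female) and 1139130 (12-week female).

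At 12 weeks Susd3 was higher in the male library by a log2 difference of 5.13 on the log2(normalized count + 1) scale used for all differences below. As a ratio this was 36.2 (95% interval 24.2 to 57.0, counting error only). Of 16720 genes that averaged 10 or more normalized counts, 4.84% were at least 2-fold higher in 12-week males, and the median gene differed by 0.02. Among the 11910 of these genes with at least 100 normalized counts in a 12-week library, Susd3 ranked 6, behind the Y-linked genes Uty, Ddx3y, Kdm5d and Eif2s3y and Gm39552, which was not matched in the RefSeq table. After Susd3 came Srd5a2, which encodes a steroid 5-alpha-reductase (34433 in males, 1471 in females), and Acan. Of other genes that earlier results of these data had named, Akr1d1, a 5-beta-reductase, ran the opposite way with 5.59 and 34772. Cyp2f2, a cytochrome P450, had 115 and 7451, and Frzb, a secreted Wnt inhibitor, 74.1 and 8345.

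The choice of Susd3 did not use the younger pools, and Susd3 was higher in males in both pairs of them. At P1 the male level was 1.58 times the female level (1.2 to 2.1), and at 2 weeks 1.76 times (1.19 to 2.62). The log2 differences were 0.65 and 0.80, below 2-fold, when 3.75% of genes at P1 and 0.568% at 2 weeks were at least 2-fold higher in males. In a limma fit of the 4 libraries of P1 and 2 weeks, with age as a block, the male minus female difference was 0.73 ± 0.32 (SE, 1 residual degree of freedom, 95% interval 0.04 to 1.42). It did not pass (unadjusted p = 0.0406, Benjamini-Hochberg adjusted p = 0.936, limma), although it was higher in males in 2 of 2 pairs. In that fit 0.012% of genes were called higher in males and 0.144% lower. Without a library and without the block it ranged from 0.16 (without 2-week females) to 1.29 (without P1 females), with 0.24 without P1 males and 1.22 without 2-week males.

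**Figure D2:**
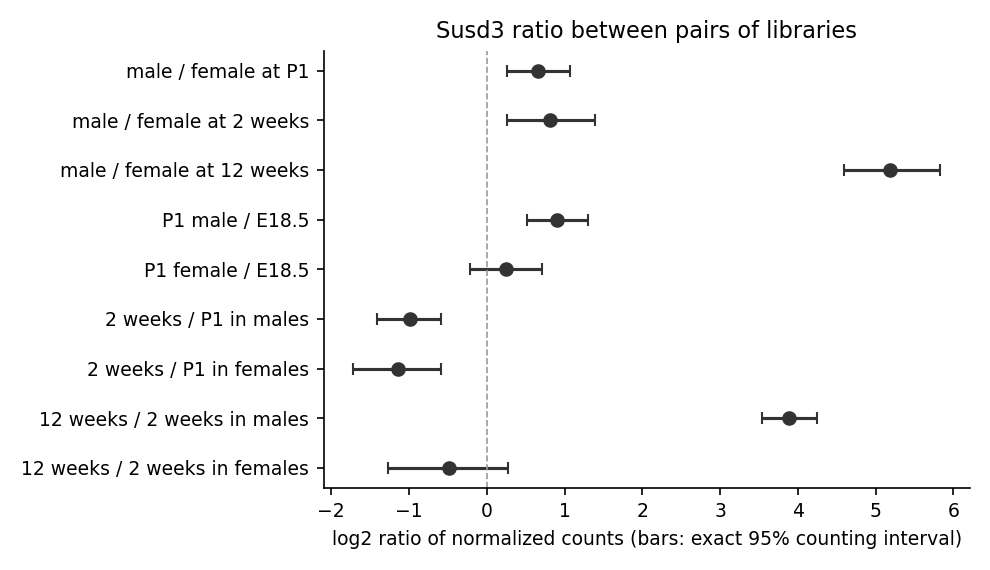
Log2 ratio of Susd3 normalized counts, with no pseudocount, for 9 pairs of libraries, with exact 95% binomial intervals that cover counting error only. The male to female ratio is 1.58 at P1, 1.76 at 2 weeks and 36.2 at 12 weeks.

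Markers of tissues and cell types are set beside these sex differences, and their sums went either way or differed little. In P1 males the 7 kidney markers summed to 8292 normalized counts, against 2362 in P1 females, and 5 exocrine pancreas markers to 5304 against 64.0. The 9 adrenal cortex markers also summed higher in P1 males, 1.67 times the female sum, near the 1.58 of Susd3, and the 5 liver markers 1.72 times. Of the cortex markers, Hsd3b1 was lower in P1 males (68986 and 82840). The male cortex sum was 0.992 of the female sum at 2 weeks and 0.759 at 12 weeks, where the Susd3 ratios were 1.76 and 36.2. Sums were lower in P1 males for chromaffin (0.515 of the female sum), zona glomerulosa (0.579) and skeletal muscle markers (0.517). At 12 weeks 5 of 7 kidney and 4 of 5 pancreas markers had no read in either sex, and the lists summed to 45.3 or less. The 5 B cell markers summed to 62.9 in 12-week males and 66.8 in females, and the 8 macrophage markers to 10573 and 9741. The 3 X-zone markers (Akr1c18, Pik3c2g and Thrb) summed to 1447 in 12-week males and 4196 in females. All 3 were at least 2-fold lower in males, where 3.98% of all genes were, and Pik3c2g had no read in 12-week males. At 2 weeks the same sums were 7577 in males and 30148 in females, the 5 liver markers summed to 8913 and 23224, and the 5 skeletal muscle markers to 131 and 4766. The 8 adipocyte markers summed to 35988 in 12-week males and 28659 in females. Of them, 2 were at least 2-fold higher in males, where 4.84% of all genes were. The zona glomerulosa marker Hsd3b6 (1699 and 556) was also at least 2-fold higher in 12-week males. The cortex marker Cyp21a1 (81456 and 171261), the chromaffin marker Pnmt (577 and 1206) and 1 B cell marker were at least 2-fold lower. Of the liver markers, 1 was higher and 1 lower. The part of these markers in the Susd3 sex differences was not tested. In whole glands, fewer cells of a type cannot be told apart from less RNA per cell.

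From P1 to 2 weeks Susd3 fell in both sexes. The ratio of 2 weeks to P1 was 0.503 in males (0.378 to 0.666) and 0.452 in females (0.304 to 0.666), or log2 differences of -0.98 and -1.12. With sex as a block over these 4 libraries the change was -1.05 ± 0.32 (SE; adjusted p = 0.0289, limma; lower in 2 of 2 sexes), and 15.6% of genes were called lower. The value kept its size but not its call with edgeR's quasi-likelihood test on recovered reads (adjusted p = 0.0509) and with DESeq2 (0.188). It was also not called without any 1 of the 4 libraries and without the block, from -0.65 without 2-week females and -0.73 without P1 males to -1.38 without P1 females and -1.45 without 2-week males. The 7 kidney, 5 liver and 5 skeletal muscle markers were all called lower over the same interval, as were 7 of 8 macrophage and 2 of 5 B cell markers, and 8 of 8 adipocyte markers were called higher. Their part in the Susd3 change was not tested.

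Susd3, already higher in the male libraries at P1 and 2 weeks, lay further apart between the sexes at 12 weeks. The 12-week values chose the gene and were not tested. In males Susd3 was 14.8 times higher at 12 weeks than at 2 weeks (11.6 to 19.0), a log2 difference of 3.86, and 9.59% of genes were at least 2-fold higher. In females it was 0.716 of the 2-week level (0.415 to 1.21), a log2 difference of -0.47 that did not exceed counting error. Over this interval, scaling the libraries to equal totals moved the median of all genes to -0.20 in males and -0.19 in females, and Susd3 to 3.68 and -0.62. In males that scaling changed the genes at least 2-fold apart from 1603 higher and 1929 lower to 1267 higher and 2409 lower. From E18.5, Susd3 was 1.88 times higher in P1 males (1.43 to 2.47) and 1.19 times higher in P1 females (0.860 to 1.64). These comparisons share the E18.5 library, in which the Y-linked genes summed to 4250 normalized counts and Xist had 9782.

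The other sushi domain containing genes were compared per kilobase of merged exon length in GENCODE M21, since read counts grow with transcript length. The annotation used in counting is not stated, so these levels are approximate. In the E18.5 pool Susd3 reached 24.9 normalized counts per kb, rank 5 of the 6 genes. It had rank 5 also in P1 females (29.6), 2-week males (23.5), 2-week females (13.4) and 12-week females (9.57), and rank 4 in P1 males (46.7). In 12-week males it was the highest of the 6 at 347 per kb, above Susd6 at 190 and Susd2 at 83.0. Susd6, which is known as a p53-induced gene, led in the other 6 libraries with 147 to 210 per kb.

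**Figure D3:**
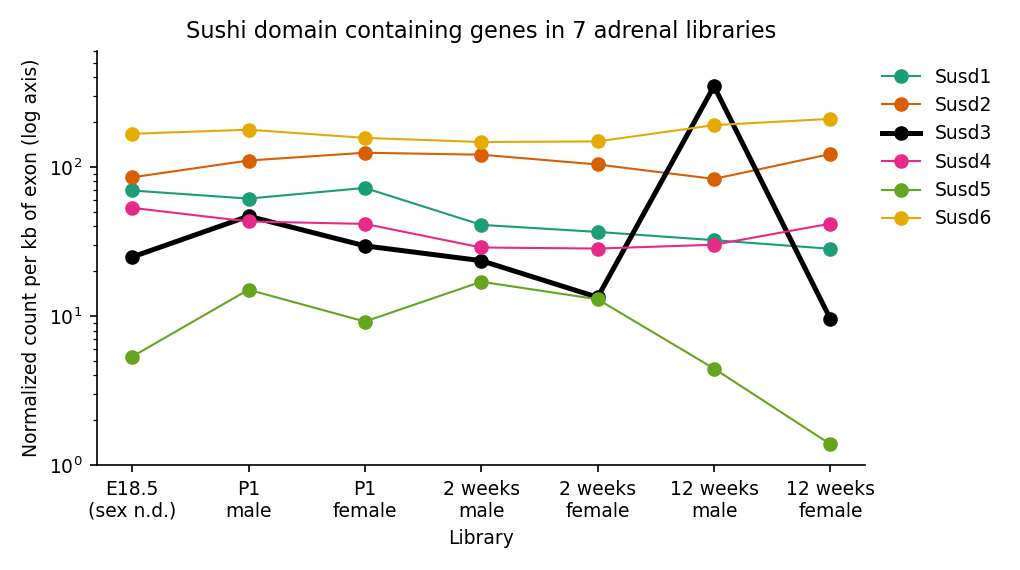
Normalized counts per kb of exon (log axis) for the 6 sushi domain containing genes in the 7 libraries, joined by lines only to guide the eye. Susd3 (black) rises to 347 in the 12-week male library, while Susd6 stays between 147 and 210 throughout.

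In normalized counts the highest over the lowest library was 1.43 for Susd6, 1.5 for Susd2, 1.87 for Susd4, 2.56 for Susd1 and 12.3 for Susd5. At 12 weeks the male minus female log2 difference was 0.19 for Susd1, -0.55 for Susd2, -0.47 for Susd4 and -0.14 for Susd6. Susd5 differed by 1.53, but from 13 reads in males and 5 in females. From P1 to 2 weeks Susd1 was the other member called lower (-0.78 ± 0.23, adjusted p = 0.026, limma), and Susd2, Susd4, Susd5 and Susd6 were not called, with log2 changes from -0.56 to 0.33. The family median was -0.37, beside 0.0026 over all genes tested.

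Among 25 other genes for sushi-module proteins, 22 passed the filter on low values. At 12 weeks 1 of them was at least 2-fold higher in males and 3 were lower, with a median log2 difference of 0.27, beside backgrounds of 4.84% and 3.98%. From P1 to 2 weeks 3 were called higher and 3 lower, where 9.56% and 15.6% of all genes were. The higher ones were Sele, an endothelial adhesion receptor (3.05), Il15ra, the interleukin-15 receptor alpha chain (1.27), and Cr1l, a complement regulator (0.51). The lower ones were Cfb, complement factor B (-2.94), Masp1, a lectin pathway protease (-0.56), and Sez6l (-0.73).

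**Figure D4:**
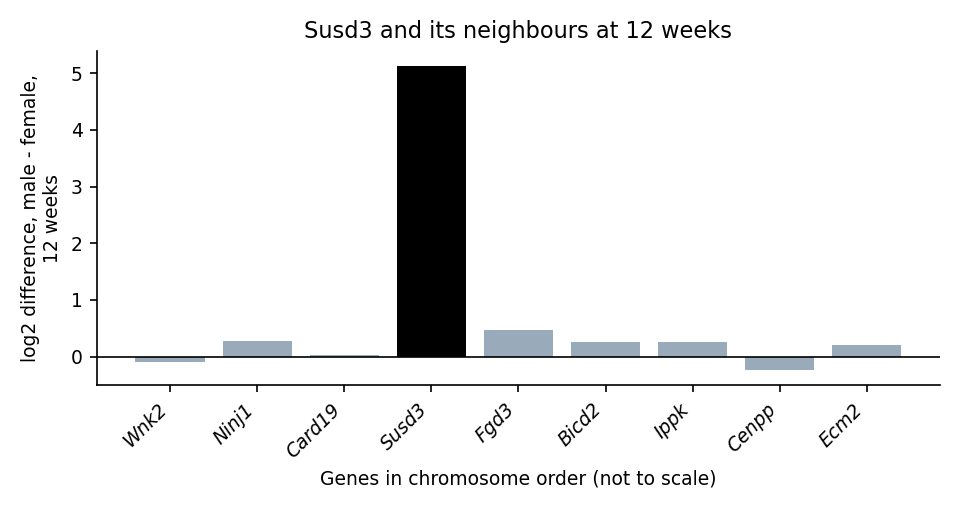
Male minus female log2 difference at 12 weeks for Susd3 (black) and its neighbours that passed the filter on low values, in chromosome order and not to scale. Susd3 stands at 5.13 and the 8 neighbours lie between -0.24 and 0.47.

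The sex difference of Susd3 at 12 weeks was not seen at that size in the genes beside it. Of the 5 nearest genes with a row in the table on each side, 8 passed the filter, and the noncoding Gm40942 and Gm40943 had 0 and 2 reads in all libraries together. On one side Card19 stood at 233 and 230 in males and females of 12 weeks, Ninj1, which encodes a cell-surface protein of membrane rupture, 417 and 344, and the kinase gene Wnk2 74.1 and 79.2. On the other side Fgd3, a guanine nucleotide exchange factor gene, had 86.7 and 62.2, and Bicd2, a dynein adaptor gene, 1325 and 1110. Ippk, which makes inositol hexakisphosphate, had 1386 and 1161, Cenpp, a centromere protein gene, 39.1 and 46.4, and Ecm2 565 and 489. Each of the 8 was less than 2-fold apart between the sexes at 12 weeks, with log2 differences from -0.24 to 0.47, where 8.83% of all genes were at least 2-fold apart. From P1 to 2 weeks Wnk2 was called lower (-0.95) and Ippk higher (0.93), and 6 of the 8 were not called, where 15.6% of all genes were called lower and 9.56% higher.

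Receptors for sex hormones differed in level, and Fshr, the follicle-stimulating hormone receptor, had no read in any library. Esr1, estrogen receptor alpha, had 222 normalized counts before birth, 245 and 406 at P1, 728 and 749 at 2 weeks, and 631 and 1030 at 12 weeks. Esr1 was thus highest in 12-week females, where Susd3 was lowest. Of the 8 receptors listed, 6 passed the filter, and from P1 to 2 weeks 4 of them were called higher (among them Esr1 1.22 ± 0.21, Gper1 0.84 ± 0.29 and Prlr 0.63 ± 0.18 in log2, limma) and 0 lower, where 9.56% and 15.6% of all genes were. At 12 weeks 2 of the 6 were at least 2-fold lower in males, the prolactin receptor Prlr (5679 and 23987) and Esr2 (4.19, the level of 3 reads, and 46.4), and 0 were higher, where 3.98% and 4.84% of all genes were. Esr2 averaged 10 or more only through the 12-week female library, with 0.88 to 13.1 in the others. Its place in this count was therefore fixed by the filter, and only Prlr bears on the sexes there.

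Genes linked to sex hormones in other tissues were listed as well. Of 12 genes associated with estrogen receptor alpha in breast tissue, 10 passed the filter. Of these, Greb1, an estrogen receptor cofactor, was at least 2-fold higher in 12-week males (3705 and 1225), and 0 were lower, with a median of -0.04. Car12 (4.19 and 5.66) and Myb (1.40 and 1.13) had few reads in both 12-week libraries, so their differences there say little. From P1 to 2 weeks 5 of the 10 were called lower (Gata3, Car12, Myb, Rara and Igfbp4) and Greb1 was called higher, where 15.6% and 9.56% of all genes were. Of 12 androgen responsive genes, 0 were at least 2-fold apart between the sexes at 12 weeks, where 8.83% of all genes were, and the median was -0.0036. From P1 to 2 weeks Tmprss2 (-4.94) and Ndrg1 (-0.67) were called lower. Fkbp5, a chaperone for steroid receptors, had 2125 and 1587 in males and females of 12 weeks. Zbtb16, a zinc finger repressor gene, had 1239 and 782.

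Genes with the most similar profile were found by Pearson's r of log2 values over the 7 libraries, among 2621 genes with a highest value of at least 100 and a log2 range of at least 2. The 8 highest were Rrad (r = 0.90), Hhex (0.876), Cited1 (0.865), AA986860 (0.863), Pik3ap1 (0.861), Slc7a4 (0.830), Fgd2 (0.820) and Acan (0.820). These points share 1 library per group, and the 12-week male library was the highest in all 8, which the choice by likeness to Susd3 favours. Without that library r ranged from -0.34 (Slc7a4) to 0.81 (Rrad), and 0 of the 8 remained among the first 8. With Spearman's rank correlation 2 of the 8 remained. Without the 12-week male library r was near or below 0 for Hhex, AA986860 and Slc7a4, and between 0.48 and 0.81 for the other 5.

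**Figure D5:**
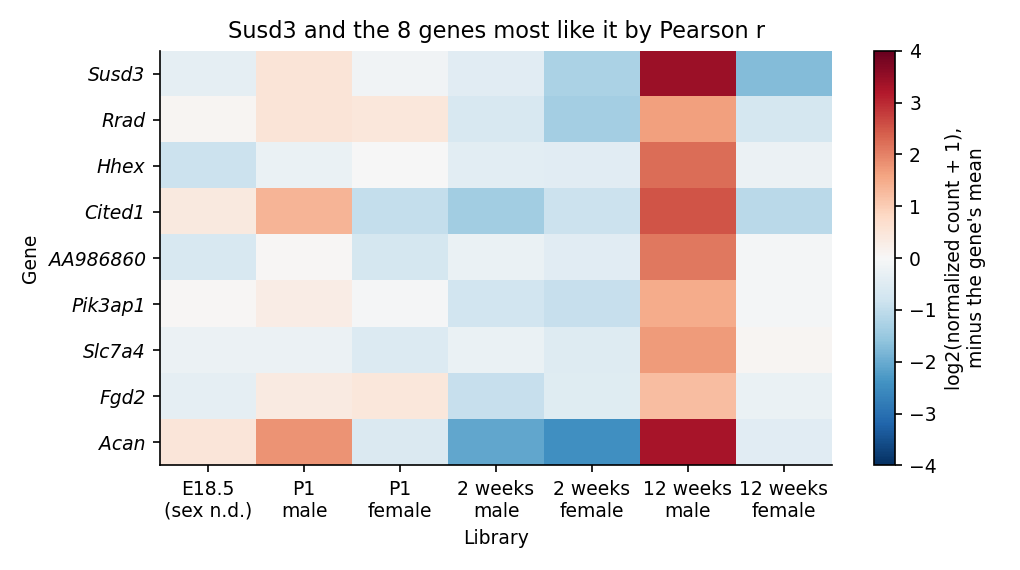
Log2(normalized count + 1) minus each gene's mean over the 7 libraries, for Susd3 and the 8 genes most like it. The 12-week male column is the highest for each gene, which the choice by likeness favours, and the other columns differ among the genes.

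Acan encodes aggrecan, a cartilage proteoglycan whose end domain also carries a sushi module. Its normalized count was 115 before birth, 288 and 55.2 in males and females of P1, 18.7 and 14.1 in males and females of 2 weeks, and 815 and 60.0 at 12 weeks. Acan was higher in the male library at each age, as Susd3 was, but at 2 weeks both values were low and close, and no counting interval is given. The lowest level of Acan was in 2-week females and that of Susd3 in 12-week females. Hhex, a homeobox gene, had 2740 in 12-week males and from 321 to 572 in the other 6 libraries. Cited1, an X-linked coactivator gene, had 119 in 12-week males, 53.2 in P1 males, 26.9 at E18.5 and 7.12 to 10.6 in the other 4. Rrad, a Ras-related GTPase gene, had 165 in 12-week males and 31.7 in females, with its lowest value, 19.4, in 2-week females. The 12-week male level was between 1.71 (Fgd2) and 4.79 (Hhex) times the highest earlier level for these 8 genes, against 7.43 for Susd3. Susd3 was chosen by its 12-week values and these genes by likeness to its profile. The choice therefore favoured this order, which is a description only. Of the 6 of these genes with a RefSeq promoter window, 1, Cited1, held CAAGGTCA.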

How the data were processed

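The authors deposited 1 table of normalized counts, a signal per gene symbol for 7 libraries. CASAVA 1.8.2, HISAT2 2.1.0, HTSeq 0.9.1, DESeq2 2.11.40.6 and mm10 are named, per the submitters' processing notes, with no role or order. The annotation and use of strand are not given in the sources used here. Of the values, 100% were whole multiples of 1 step per library (within 0.01 reads), so reads were recovered by division, and 15184210 to 23551289 reads per library set the precision.

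The 16720 genes that averaged 10 or more normalized counts were tested. Susd3 passed also on the libraries before 12 weeks (mean 78.3). The fit was limma 3.58.1 (R 4.3.3, eBayes with a trend) on log2(normalized count + 1), which understates changes of low genes, over P1 and 2 weeks with age and sex as terms, with two-sided p-values adjusted by Benjamini-Hochberg and called under 0.05. Alternatives included edgeR 4.0.16 and DESeq2 1.42.0 on recovered reads. Ratios carry exact 95% Clopper-Pearson intervals on reads (scipy 1.17.1), and levels exact Poisson ones, both for counting error only, as PCR copies of a molecule are not told apart. Scripts were tested on simulated data. No group had a second pool, so p-values do not measure the spread between like pools. In the main fit the error is the departure of the 4 libraries from additive age and sex terms. The p-values rest on 1 residual degree of freedom per gene and 11.0 prior ones estimated over all genes tested, so the prior carries most of the weight.

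Susd3, the lists and the tests were chosen with earlier results of these data known. Named genes are Susd3, its family, the 5 tabulated genes on each side, the 8 genes of highest Pearson r, list members with high levels or calls, and Srd5a2, Cyp2f2, Akr1d1 and Frzb. Gm39552 and the Y-linked genes ranked beside Susd3 were named after their values were seen. The values of some listed genes are not reported here. Of the symbols, 32500 were found in the RefSeq table (GRCm38.p6).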

Additional observations from a re-analysis of the deposited data

Results flagged for a closer look

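The log2 difference of Susd3 between 2 weeks and 12 weeks had opposite signs in the sexes, 3.86 in males and -0.47 in females, and the female value did not exceed counting error (ratio 0.716, 0.415 to 1.21). Each value compares 1 pool with 1 pool, the gene was chosen on these 12-week pools, and the difference was not tested.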

How the results depend on the processing

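The 9 differences of Susd3 between 2 libraries stayed within their counting intervals in 36 of 36 alternative values (pseudocounts of 0.1 and 5, equal totals, upper-quartile scaling), and 0 reversed. The change from P1 to 2 weeks kept its direction and call in 6 of 14 alternatives and reversed in 0, with adjusted p from 0.0283 to 0.524. It was not called in limma with all genes above 0 (-1.05, adjusted p = 0.216), with all 6 postnatal libraries (-1.05, adjusted p = 0.524), with edgeR (-1.05, adjusted p = 0.0509), with DESeq2 (-1.06, adjusted p = 0.188), or without each library and the block (-0.73 without P1 males, -1.38 without P1 females, -1.45 without 2-week males, -0.65 without 2-week females), where a lone library is assumed to vary like the others. The fit of 6 libraries includes the 12-week sex difference in its spread. The sex difference over P1 and 2 weeks was not called in 14 of 14 alternatives (adjusted p from 0.815 to 1), and was 2.19 with all 6 postnatal libraries, which include the 12-week values that chose the gene.

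Genes called from P1 to 2 weeks numbered 4203 (1599 higher, 2604 lower). They were 0 with all genes above 0 (5513 at an unadjusted p under 0.05; edgeR called 3505), 2323 without a trend, 2737 with 6 libraries, 2751 with DESeq2, and 2697, 2585, 1409 and 1773 without each library in that order. Genes called between the sexes numbered 26 (2 higher in males, 24 lower). They were 10 and 5 with pseudocounts of 0.1 and 5, 9 at a mean of at least 50, 1 with equal totals, 1 with upper quartiles, 1 with 6 libraries, 16 with edgeR (11 higher, 5 lower) and 41 with DESeq2. In limma they were 0 with all genes above 0 (883 at an unadjusted p under 0.05), 0 without a trend (801), and 0 to 0 without each library (15 to 143). The cause was not tested.

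Genes at least 2-fold apart in a pair of libraries are given in the order male and female at P1, 2 weeks and 12 weeks, P1 males and P1 females against E18.5, 2 weeks against P1 in males and females, and 12 against 2 weeks in males and females. They numbered 1134, 709, 1476, 1405, 2200, 3428, 3202, 3532 and 3435. With all genes above 0 they were 4550, 2331, 5215, 3933, 5793, 6630, 6918, 6894 and 6623. At a mean of at least 50 they were 473, 325, 814, 624, 1204, 2101, 1984, 2224 and 2221. At 4-fold they were 209, 185, 276, 280, 400, 1355, 1134, 1104 and 1167, and a pseudocount of 5 gave 455 for the sexes at 2 weeks. Of these, males had more genes than females at 12 weeks at 2-fold (810 and 666) but fewer at 4-fold (128 and 148). Of the 8 genes most like Susd3, 7 remained with a pseudocount of 5, 7 with equal totals, 2 with Spearman's rank correlation and, in an alternative chosen after seeing the data, 0 without 12-week males.

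No paired analysis was possible because each group had 1 library, so no replicate numbers are shared, and only age and sex served as blocks.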
